A study of Mus musculus with 6 samples.

Results

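The kappa light chain variable genes were examined in bulk RNA-seq of mouse B cells from spleen that were driven to switch to IgA in culture. Members were all genes whose symbol in GENCODE vM21 begins with Igkv and whose gene type is a functional immunoglobulin V gene, which gave 100 of the 46983 genes listed. They fell into 20 V families by the first number of the symbol. All 100 had an FPKM (fragments per kilobase of gene length, scaled to the reads counted in the library) above 0 in at least 1 library, and 97 in all 6 libraries.

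The 3 *Hif1a* KO libraries were compared with 3 WT libraries to ask what loss of HIF-1α does to B cells as they switch to IgA. KO mice carried 2 floxed *Hif1a* alleles (f/f) and *Mb1*-cre on a C57BL/6 background. *Mb1*-cre is driven by the *Cd79a* promoter, which is active in B cell precursors before kappa genes are rearranged. WT controls were littermates, either *Hif1a* f/+ with cre or *Hif1a* f/f without cre, and the genotype of each WT library is not labelled. All 6 cultures held splenic B cells, sorted as CD21int CD23+ follicular (FO) cells per the study's methods, treated for 3 days with LPS (5 μg/ml) and with BAFF, IL-5 and TGF-β (10 ng/ml each). Ages were not given, and the labels do not state that replicates came from separate mice, so the spread between libraries may be partly technical.

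A mature B cell makes its light chain by joining 1 V gene to 1 J gene at the kappa locus or at the lambda locus, and the joined V gene is then transcribed from its own promoter together with the constant gene. The FPKM of a V gene in a bulk library is thus the summed output of all cells that chose it. In such data, fewer cells using a gene and less RNA per cell cannot be told apart. Kappa chains dominate in the mouse, and V genes can be brought to the J genes by deletion or by inversion of the DNA between them, depending on their orientation. The share of a gene is given below as a percentage of the summed Igkv FPKM of its library, a scale that is per length and comparable between genes.

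Depth was 25.0 to 37.2 M counted reads, of which 0.2503% to 0.378% (65012 to 123260 reads) lay on Igkv genes. *Hif1a* itself was at 36.5, 49.8 and 45.8 FPKM in WT and 46.5, 45.5 and 52.8 in KO, so the groups overlapped; the part of the gene that the floxed allele loses is not given in the sources used here, and a value over the whole gene need not register the loss of an exon. WT replicate 1 stood apart from the other WT libraries: on the first principal component of all tested genes it lay at -15.7, beside KO replicates 1 to 3 at -9.86, -7.10 and -19.5, while WT replicates 2 and 3 lay at 26.2 and 25.9. Results are therefore given also without WT replicate 1 where that changes them.

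All 6 B cell markers lay between 119 and 1203 FPKM in every library, with *Ms4a1* (CD20) at 351 ± 33.2 FPKM in WT and 395 ± 44.3 in KO (SD, n = 3 each). Of 3 follicular markers, *Cr2* (CD21) was at 65.5 to 93.2 and *Fcer2a* (CD23) at 37.0 to 88.0 FPKM over the libraries, and none of the 3 was differentially expressed. The 7 B-1 and marginal zone markers ran from *Cd5* at 2.45 to 3.55 and *Myof* at 1.645 to 5.48 FPKM up to *Zbtb32* at 149 to 255. *Spn*, *Bhlhe41* and *Cd9* lay between 29.85 and 49.2 FPKM, and *Cd1d1* between 9.06 and 11.95. The median log2 fold change of the 7 was 0.04, from -0.26 in *Cd9* to 0.34 in *Spn*, and 0 were differentially expressed. The other T cell markers of a list of 6 were at most at 0.686 FPKM in any library, while *Lck* was at 90.1 to 131 in WT and 133 to 137 in KO.

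The V genes differ in the stretch that ends the segment, from the last cysteine codon onward, which forms the germline-encoded start of the third complementarity-determining region. The last 30 bases of 9 coding sequences (GENCODE vM21, coding strand) are shown for genes whose shares did not overlap between the groups and for Igkv1-135, Igkv17-121 and Igkv12-44, relatives of theirs whose shares overlapped, with capitals from the cysteine codon to the end.
Igkv1-117: ttacTGCTTTCAAGGTTCACATGTTCCTCC
Igkv1-110: tttcTGCTCTCAAAGTACACATGTTCCTCC
Igkv1-135: ttatTGCTGGCAAGGTACACATTTTCCTCA
Igkv17-127: ctacTGTTTGCAAAGTGATAACATGCCTCT
Igkv17-121: ctacTGTTTGCAAAGTGATAACTTGCCTCT
Igkv12-44: ttacTGTCAACATCATTATGGTACTCCTCC
Igkv12-46: ttacTGTCAACATTTTTGGGGTACTCCTCC
Igkv4-59: acTGCCAGCAGTGGAGTAGTAACCCACCCA
Igkv4-68: acTGCCAGCAGTGGAGTAGTAACCCACCCA
The stretch was 26 bases long in 67 genes and 28 bases in 21, all 21 of them in the Igkv4 family. Among the 100 genes there were 88 distinct stretches, and the last pair above had the same one.

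Near-identical members limit how surely a read can be given to 1 gene. The median gene was 94.5% identical in coding sequence to its closest relative, 18 genes were at least 97% identical to another, and 58 shared no run of 100 bases with any other. Igkv17-127 and Igkv17-121 were 97.5% identical, Igkv4-59 and Igkv4-70 97.4%, and Igkv1-117 and Igkv1-110 97.2%. How the authors treated reads with several alignments is not given in the sources used here, so values within such pairs are uncertain.

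Use of the kappa genes was uneven. Igkv1-117 was the most used gene in all 6 libraries, with a share of 8.73%, 8.57% and 8.73% in WT and 7.08%, 8.40% and 7.06% in KO. It lies at chr6:68121046-68121827 (GRCm38, plus strand), 2604.6 kb from the constant gene *Igkc*. With even use, each gene would have held 1%, and the median gene held 0.57%. The 15 highest genes made up 50% of the summed Igkv FPKM and 51 made up 90%. The 33 genes with a mean share of at least 1% held 77.0%, while the 20 under 0.1% held 0.923% together.

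Next in the ranking came Igkv1-135 with a mean share of 5.41% over the 6 libraries, Igkv10-96 with 4.30%, Igkv9-120 with 3.82% and Igkv14-111 with 3.63%. Igkv6-15 held 3.27%, Igkv8-27 held 3.04%, Igkv1-110 held 2.97%, Igkv8-24 held 2.77% and Igkv12-44 held 2.68%. These 10 highest genes, Igkv1-117 included, came from 7 of the 20 families and summed to 40.0%. At the other end, Igkv19-93 had 1 read in WT replicate 1, 2 in KO replicate 1 and none elsewhere, and Igkv2-137, the V gene farthest from *Igkc*, had at most 2 reads in a library.

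Some genes varied far more between libraries than others. Among the 33 genes with a mean share of at least 1%, the coefficient of variation of the share over the 6 libraries had a median of 14.3%. Igkv16-104, the sole member of its family, was the steadiest, with a coefficient of 6.36% and shares between 1.59% and 1.87%. Igkv8-30 was the most variable at 37.0%. It took 1.84%, 3.52% and 1.37% in WT and 1.90%, 1.71% and 1.87% in KO, so that WT replicate 2 alone stood out. Igkv8-24 took 1.62%, 3.75% and 3.51% in WT and 3.04%, 1.88% and 2.83% in KO, with 1 low library in each group. No gene with a mean share of at least 0.5% reached 3 times its median in any library.

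**Figure D1:**
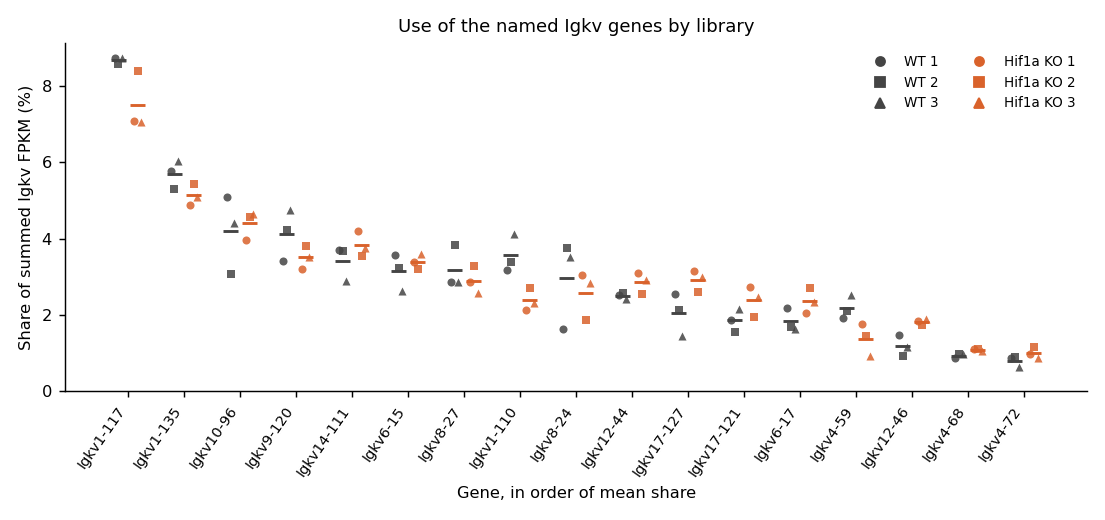
Share of the summed Igkv FPKM (%, vertical axis) of the 17 named Igkv genes in each library, with WT in grey and *Hif1a* KO in orange, 1 symbol per replicate and a bar at the mean of 3 libraries. Igkv1-117 leads in every library, and its 3 WT points lie above its 3 KO points.

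Family use followed family size only in part. The 10 genes of Igkv1 together held the largest mean share, 18.0%, and the 26 genes of Igkv4 held 14.9%, or 0.574% per gene against 1.80% per gene in Igkv1. The 10 genes of Igkv8 held 12.2% and the 9 of Igkv6 held 11.96%. The highest share per gene was that of Igkv17, whose 2 genes held 4.59%, and Igkv10 followed with 6.16% from 3 genes. Igkv16 and Igkv15, with 1 gene each, held 1.73% and 1.08%, while Igkv7, Igkv18, Igkv19 and Igkv20, also with 1 gene each, stayed under 0.1% on average.

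Total kappa variable output did not separate the groups. Summed Igkv FPKM was 9022, 7205 and 6817 in WT and 8296, 7159 and 10331 in *Hif1a* KO, so that the highest and the second highest library came from different groups. The means were 7681 ± 1177 and 8595 ± 1607 FPKM (SD, n = 3 each), a log2 ratio of 0.16 (exact permutation test on log2 sums, two-sided, p = 0.6, where 3 against 3 libraries allow no p under 0.1). Without WT replicate 1 the log2 ratio was 0.28, and without KO replicate 3 it was 0.02. *Igkc*, the constant gene that all kappa chains share, was highest in the same 3 libraries (WT replicate 1 and KO replicates 1 and 3), at 7148, 4766 and 4196 FPKM in WT and 5784, 5702 and 7024 in KO.

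The summed plasma cell markers were also highest in those 3 libraries. *Jchain*, which links IgA and IgM units, *Prdm1* (Blimp-1), *Slamf7*, *Sdc1* (CD138) and *Tnfrsf17* (BCMA) summed to 270, 152 and 140 FPKM in WT and 264, 212 and 336 in KO. *Jchain* alone was at 182, 90.5 and 84.0 in WT and 173, 142 and 220 in KO, and made up most of the sum, whereas *Tnfrsf17* was at most at 0.179 in any library. *Sdc1* did not share this order, at 4.67, 3.803 and 3.19 FPKM in WT and 2.68, 3.67 and 4.01 in KO, with KO replicate 1 the lowest. Macrophage markers (6 genes) summed to 72.9, 167 and 118 FPKM in WT and 73.5, 78.2 and 66.2 in KO, with *Lyz2* at 6.18, 58.3 and 26.2 in WT and 0.600 to 3.70 in KO. Most of the sum was *Adgre1*, at 59.8, 91.05 and 81.1 FPKM in WT and 67.7, 69.7 and 55.5 in KO, whereas *Csf1r* was at most at 0.754 in any library. The part of either marker set in the kappa values was not tested.

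Kappa and heavy chain variable output stayed close to each other in every library. Summed Igkv over summed Ighv FPKM was 0.999, 1.09 and 1.08 in WT and 0.987, 1.03 and 1.04 in KO (exact permutation p = 0.3). Igkv over *Igkc* was 1.26, 1.51 and 1.62 in WT and 1.43, 1.26 and 1.47 in KO (exact permutation p = 0.5). The 3 lambda V genes took 13.1%, 14.98% and 15.2% of all light chain variable FPKM in WT and 14.6%, 14.1% and 13.6% in KO (exact permutation p = 0.7). The 60 Igkv pseudogenes summed to 22.7 to 33.7 FPKM in WT and 31.8 to 41.0 in KO, with overlapping groups.

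Kappa gene use was spread slightly more evenly in all 3 KO libraries, by less than 3 genes in an effective number above 50. The effective number of Igkv genes, the exponential of the Shannon entropy of the shares, was 52.7, 52.0 and 51.9 in WT and 55.1, 53.5 and 54.6 in KO. Every KO library lay above every WT library, with means of 52.2 ± 0.440 and 54.4 ± 0.810 and a difference of 2.22 genes (exact permutation p = 0.1, the smallest that 3 against 3 can give). The share of the 10 highest genes of each library was correspondingly 41.4%, 42.6% and 42.4% in WT and 38.9%, 40.3% and 39.0% in KO, again without overlap (42.1% ± 0.660 against 39.4% ± 0.777, exact permutation p = 0.1). Without WT replicate 1 the difference in effective number was 2.47 genes, and with the highest gene of each library left out it was 1.41. For the heavy chain V genes the effective number was 57.2, 56.0 and 55.2 in WT and 58.5, 57.2 and 59.3 in KO, where the groups overlapped (exact permutation p = 0.2). The difference between the kappa and heavy chain patterns was not tested.

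**Figure D2:**
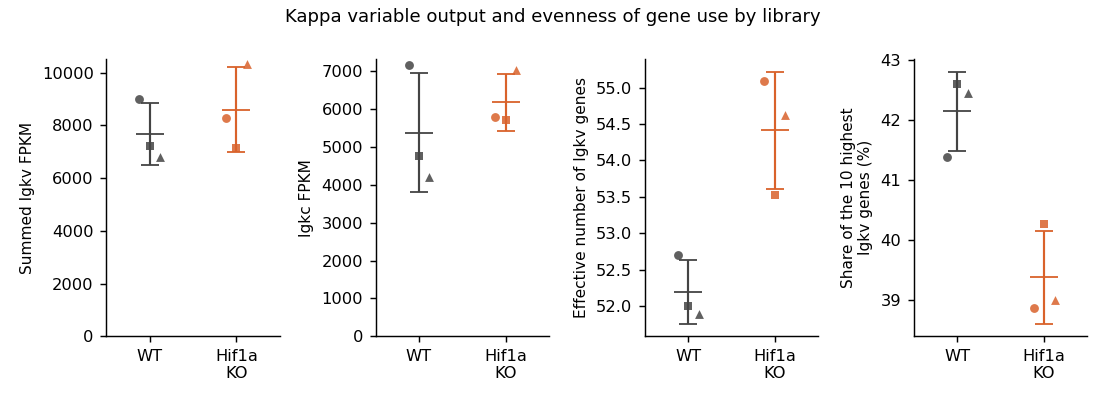
Summed Igkv FPKM, *Igkc* FPKM, effective number of Igkv genes and share of the 10 highest Igkv genes (%) per library, with WT in grey and *Hif1a* KO in orange, symbols for replicates 1 (circle), 2 (square) and 3 (triangle), and mean ± SD of 3 libraries; the last 2 axes do not start at 0. The groups overlap in the first 2 panels and do not in the last 2.

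No kappa V gene was differentially expressed between *Hif1a* KO and WT. Of the 96 Igkv genes tested (mean FPKM of 0.5 or more), 0 passed a Benjamini-Hochberg adjusted limma p of 0.05 over 13312 genes, where the background was also 0 genes (0%); voom on read counts recovered from the FPKM likewise gave 0 Igkv genes. At an unadjusted p under 0.05, 5 Igkv genes were higher in KO and 3 lower, that is 5.21% and 3.13% of those tested, against a background of 2.48% and 4.5% of all genes. FPKM values did not overlap between the groups for 4 higher and 3 lower Igkv genes, against 4.06% and 6.03% of all genes. Of the Igkv genes tested, 67 had a positive and 29 a negative log2 fold change, with a median of 0.13 against -0.03 over all genes. That balance rested on KO replicate 3, the library with the highest kappa sum: without it the counts were 48 and 48 and the median -0.003.

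Without WT replicate 1, 4 kappa genes were differentially expressed, all 4 higher in KO. They were Igkv6-17 (log2 fold change 0.78), Igkv12-46 (1.09), Igkv4-54 (1.74) and Igkv4-86 (0.67), from limma with Benjamini-Hochberg adjustment, and 0 Igkv genes were called lower. The 4 were 4.17% of those tested, near the background of 3.64% of all genes called higher, and 5.75% of all genes were called lower in that comparison. Igkv4-54 is a gene of low use, at 0.071% on average. In Igkv6-17, WT replicate 1 at 196 FPKM lay among the KO values of 171, 194 and 241 and far above WT replicates 2 and 3 at 122 and 111.

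The Igkv1 family took a smaller share in KO than in WT. It held 19.0%, 19.0% and 20.7% of kappa output in WT and 15.4%, 18.0% and 15.9% in KO, a difference of -3.08 percentage points between the means (KO minus WT). All 3 of its genes with a mean share above 1% had a lower mean share in KO. Igkv1-110 was at 287, 244 and 281 FPKM in WT and at 177, 194 and 239 in KO, with no overlap (log2 fold change -0.42, SE 0.12, limma unadjusted p = 0.0118, Benjamini-Hochberg adjusted p = 0.626). Its share was 3.18%, 3.38% and 4.12% in WT and 2.13%, 2.71% and 2.31% in KO. Igkv1-117, its close relative shown above, differed on 1 scale only: its shares did not overlap, while its FPKM was 788, 618 and 595 in WT and 587, 601 and 730 in KO (log2 fold change -0.06, SE 0.13). Shares of Igkv1-135 overlapped, at 5.77%, 5.29% and 6.03% in WT and 4.88%, 5.42% and 5.10% in KO. Its mean FPKM was level, at 438 in WT and 440 in KO (log2 fold change 0.007, SE 0.16), so its mean was lower on the share scale only.

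Igkv12, Igkv14 and Igkv17 took larger shares in KO. Igkv17 held 4.41%, 3.67% and 3.62% in WT and 5.86%, 4.56% and 5.45% in KO, a ratio of means of 1.36. Its 2 genes are the close pair printed above. Igkv17-127 was at 229, 153 and 99.3 FPKM in WT and 260, 187 and 308 in KO (log2 fold change 0.70, SE 0.31), and Igkv17-121 was at 168, 111 and 147 in WT and 226, 140 and 255 in KO (log2 fold change 0.51, SE 0.25). In both genes the FPKM of the groups overlapped, and WT replicate 1 had the highest WT value.

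Igkv12 held 5.81%, 4.70% and 4.84% in WT and 6.96%, 5.99% and 6.97% in KO. Its gene Igkv12-46 was at 133, 65.7 and 79.0 FPKM in WT and 152, 124 and 195 in KO (log2 fold change 0.80, SE 0.28, limma unadjusted p = 0.0239), with shares of 1.48%, 0.912% and 1.16% against 1.84%, 1.73% and 1.88%. The FPKM of Igkv12-46 overlapped between the groups, and only its shares did not. Igkv12-44, its more used relative, overlapped on both scales, with FPKM of 228, 186 and 164 in WT and 257, 182 and 302 in KO. The margin was narrower for Igkv14, at 5.31%, 4.81% and 4.46% in WT and 5.84%, 5.33% and 5.46% in KO. Igkv15, a family of 1 gene, was lower in KO (1.17%, 1.28% and 1.10% against 0.961%, 1.05% and 0.929%).

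These 5 were the only families of the 20 whose shares did not overlap between the groups, 3 higher and 2 lower in KO. Without WT replicate 1 the count was 9. Of all genes tested, 4.06% were higher and 6.03% lower in KO without overlap. That background is for the FPKM of single genes, and none was computed for family shares. For a single family 3 libraries against 3 cannot reach an exact permutation p under 0.1, and shares within a library sum to 100%, so a gain in some families entails a loss in others. The large families Igkv4, Igkv8 and Igkv6 overlapped. In percentage points, Igkv8 was the least even family among WT libraries (SD 2.61), at 10.7%, 15.9% and 12.5%, and nearly constant in KO, at 11.5%, 11.3% and 11.5%. Relative to their means, some families of low use varied more in WT.

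**Figure D3:**
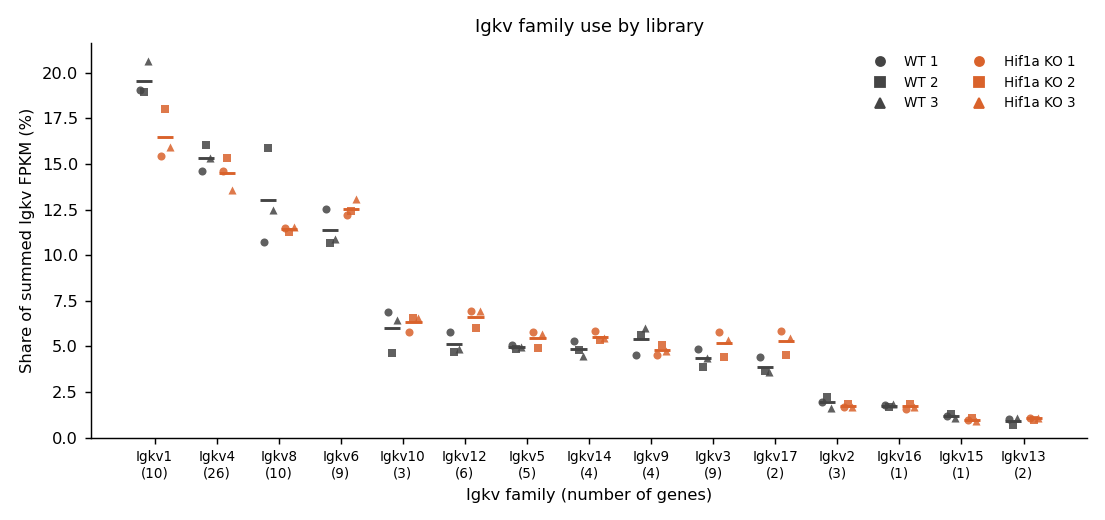
Share of the summed Igkv FPKM (%, vertical axis) of the 15 Igkv families with a mean share of at least 0.5%, with the number of genes in parentheses, WT libraries in grey, *Hif1a* KO libraries in orange, 1 symbol per replicate and a bar at the mean of 3 libraries. Igkv1 and Igkv15 lie lower and Igkv12, Igkv14 and Igkv17 higher in every KO library than in any WT library.

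Within the Igkv4 family, members differed in opposite directions and the family total overlapped. Igkv4-59 was at 173, 151 and 173 FPKM in WT and 146, 103 and 96.4 in KO (log2 fold change -0.54, SE 0.16, limma unadjusted p = 0.0115). Igkv4-68, whose printed stretch is the same, was at 77.4, 69.5 and 66.3 in WT and 92.0, 79.0 and 109 in KO (log2 fold change 0.38, SE 0.12, limma unadjusted p = 0.0185). Neither pair of groups overlapped on either scale. Igkv4-72 was at 79.1, 65.2 and 42.9 FPKM in WT and 80.3, 82.8 and 90.8 in KO, narrowly without overlap. Its shares did overlap, with WT replicate 2 at 0.905% above KO replicate 3 at 0.879%. The adjusted limma p (Benjamini-Hochberg) was 0.626 for each of these 3 genes.

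Over the 80 genes with a mean share of at least 0.1%, the shares of 14 did not overlap between the groups, 7 higher and 7 lower in KO. For comparison, the FPKM of 4.06% of all genes tested was higher and that of 6.03% lower without overlap, a background on the FPKM scale, since shares were computed for V genes only. Beside the genes already named, Igkv2-109, Igkv15-103, Igkv4-79 and Igkv4-51 were lower and Igkv4-55, Igkv3-12, Igkv12-98 and Igkv4-86 higher. They lay from 207.6 kb to 2864.8 kb from *Igkc* and belonged to 7 families.

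**Figure D4:**
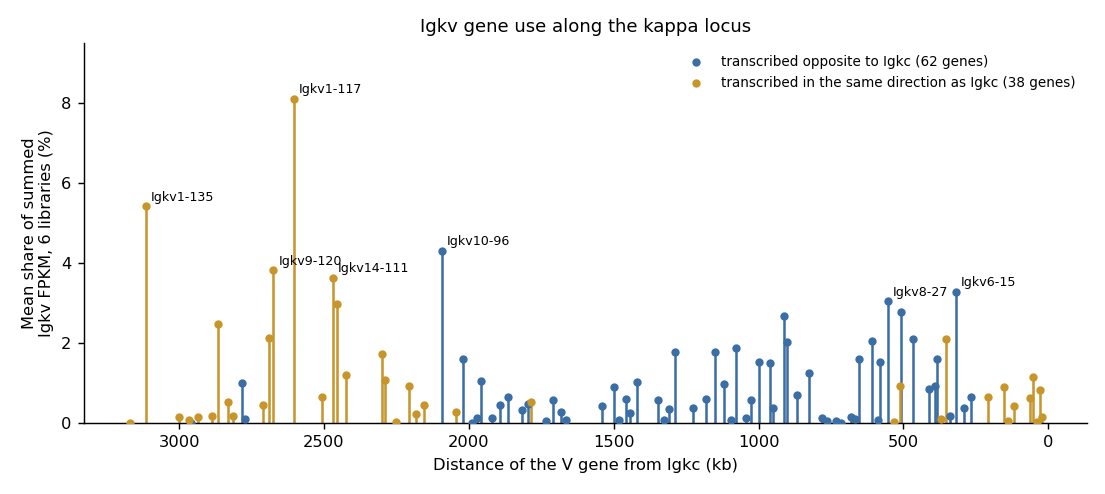
Mean share of the summed Igkv FPKM over the 6 libraries (%, vertical axis) of the 100 Igkv genes against their distance from *Igkc* (kb, horizontal axis, falling to the right), with colour for the direction of transcription relative to *Igkc*. The 5 most used genes lie among the 34 farthest, at 1891 to 3170 kb, and genes of near-zero use lie beside highly used ones along the whole locus.

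Along the locus, the far end held the largest summed share, which a few highly used genes carried. The V genes span chr6:67555497-70704177 (GRCm38), and *Igkc* lies beyond them at chr6:70726435-70726966 on the plus strand. The 34 genes farthest from *Igkc*, at 1891 to 3170 kb, held 47.0%, 44.4% and 46.9% of kappa output in WT and 43.6%, 46.3% and 44.4% in KO. The median gene among them held 0.481%, against 0.563% among the 33 genes in the middle and 0.650% among the 33 nearest. The 33 nearest, at 22 to 782 kb, held 28.4%, 30.8% and 28.01% in WT and 29.9%, 28.4% and 30.2% in KO. Both groups of genes overlapped between genotypes, whereas the 33 in between held 24.7%, 24.8% and 25.1% in WT and slightly more, 26.5%, 25.4% and 25.5%, in every KO library.

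Orientation relative to *Igkc* showed no difference by genotype. The 62 genes transcribed opposite to *Igkc*, which need inversion to join, held 53.7%, 55.6% and 54.7% in WT and 55.5%, 54.4% and 55.3% in KO. The other 38 genes, which include all 9 of Igkv3, held the rest. The median share of a gene was 0.569% in the first set and 0.578% in the second.

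In kappa use the WT libraries lay farther from each other than the KO libraries did; with 3 pairs a group this was not tested. The difference between 2 libraries was taken as the share that would have to be moved between genes to make them equal. It was 10.95, 11.2 and 12.7 percentage points for the 3 WT pairs and 5.0, 8.0 and 9.0 for the 3 KO pairs. WT replicate 1 was 8.7, 6.3 and 7.0 points from KO replicates 1, 2 and 3, closer than it was to either other WT library. WT replicates 2 and 3 were 11.1 to 14.2 points from the KO libraries and 12.7 points from each other. For heavy chain V genes the distances were 5.5 to 6.6 points from WT replicate 1 to the KO libraries and 9.9 to 10.9 to the other WT libraries. Beside this, *Rag1*, the recombinase that joins V and J genes, was at 0.992 FPKM in WT replicate 1 and at most 0.056 in any other library.

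**Figure D5:**
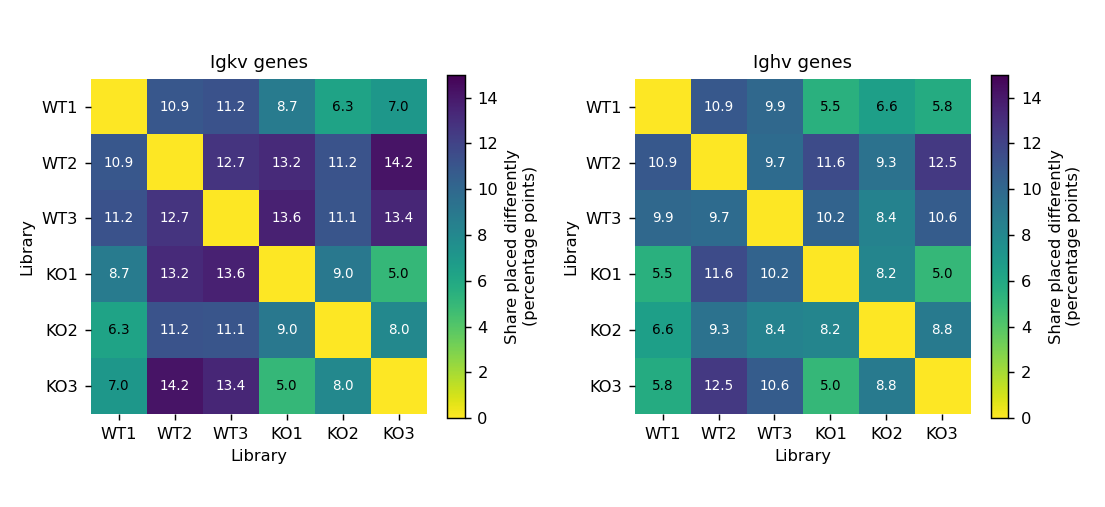
Share of variable gene FPKM placed differently between each pair of libraries (percentage points, colour and number) for the Igkv genes (left) and the Ighv genes (right). WT1 is nearer to KO1, KO2 and KO3 than to WT2 and WT3 in both panels.

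The other genes of the kappa locus and its control differed little between the groups. Of 29 listed, 23 were tested, 0 were differentially expressed by limma, and 1 was higher and 0 lower at an unadjusted p under 0.05, with a median log2 fold change of 0.14. The J genes *Igkj1* to *Igkj5* were nearly level; *Igkj5*, for example, was at 502 ± 21.4 FPKM in WT and 515 ± 9.08 in KO (SD, n = 3 each). *Pou2af1* (OCA-B), a coactivator at immunoglobulin promoters, was at 471, 288 and 282 FPKM in WT and 449, 396 and 508 in KO. *Rag2*, *Dntt*, *Vpreb1*, *Vpreb2* and *Igll1*, which act in precursor B cells, were at most at 0.438 FPKM in any library. At these low values, *Rag2* was at 0.122 FPKM in WT replicate 1 and 0 elsewhere. *Dntt* was at 0.205 FPKM in WT replicate 1 and at most 0.032 elsewhere. *Vpreb2* and *Igll1* were also highest in WT replicate 1, and *Vpreb1* in WT replicate 2. Traces of some T cell markers were highest in WT replicate 1 too. *Cd4* was at 0.409 FPKM there and at most 0.148 elsewhere, and *Cd8a* at 0.200 and at most 0.012. *Cd3d* was highest there as well, at 0.284, whereas *Cd3e* and *Trac* were highest in WT replicate 3. The source of these traces was not tested. Without WT replicate 1, 6 of the 23 were higher and 0 lower by the adjusted limma p, against 3.64% and 5.75% of all genes.

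Among 10 genes of immunoglobulin secretion, 9 were tested and 0 were differentially expressed, with a median log2 fold change of 0.29. *Xbp1*, which drives the secretory program, was at 363, 213 and 193 FPKM in WT and 334, 233 and 474 in KO, and *Mzb1*, a chaperone of antibody assembly, at 691, 510 and 494 in WT and 665, 494 and 826 in KO. Both were highest in the 3 libraries with the highest summed Igkv FPKM. Without WT replicate 1, *Jchain* and *Prdm1* were called higher by limma (log2 fold change 1.002 and 1.22), 2 of the 9 tested, where 3.64% of all genes were called higher.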

How the data were processed

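The authors cleaned paired-end reads, aligned them to mm10 with TopHat, counted reads per gene with HTSeq and deposited FPKM, 1 column per library. Annotation release, strand setting and treatment of multiple alignments are not given in the sources used here. GENCODE vM21 held 46488 of 46983 gene IDs. Read counts were recovered from the FPKM steps (a tolerance of 0.01 reads) for 25716 of 25717 genes above 0 and gave the depth. The annotated gene length gave whole reads for 9200 of these genes, and for 65 of the 100 Igkv genes. For the others a length that gave whole reads was searched, so their counts are less certain.

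Differential expression was tested with limma 3.58.1 (R 4.3.3) on log2(FPKM + 1), without covariates, for the 13312 genes whose mean FPKM reached 0.5, with Benjamini-Hochberg adjustment; fold changes are on that scale and understate those of low genes. Library values were compared with exact permutation tests, two-sided. Python 3.11.15 was used elsewhere. The lists and members were chosen with earlier results of these data known. Genes named were the 12 with the highest mean share, the highest in each library, the 6 with the smallest unadjusted p above a share of 0.5%, list members and extremes of a ranking; genes of counts without overlap were named after their values were seen. Recombination signals and promoters were not analysed here. Values of a few list members are left out. Alternatives covered pseudocount, filter, scaling, voom on recovered reads, a replicate block and each library left out.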

Additional observations from a re-analysis of the deposited data

How the results depend on the processing

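With 3 libraries a group, single libraries decided several values. Leaving out 1 library at a time gave 0 to 4 Igkv genes differentially expressed (4 without WT replicate 1, 0 otherwise), 6 to 26 at an unadjusted p under 0.05 (26 without WT replicate 1, 19 without KO replicate 2), 5 to 9 families (9 without WT replicate 1 or KO replicate 2) and 17 to 28 genes without overlap in share (28 without KO replicate 2); fewer libraries raise the last 2 counts by construction. The lambda share difference, KO minus WT, ran from -1.01 to 0.0068 percentage points. Small log2 fold changes changed sign, with ranges of -0.16 to 0.069 for Igkv1-117, -0.13 to 0.14 for Igkv1-135, -0.21 to 0.017 for Igkv9-120, -0.13 to 0.13 for Igkv8-27 and -0.24 to 0.36 for Igkv8-24. The cause was not tested.

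Replicate numbers did not pair the libraries: deviations of same-numbered libraries correlated at -0.10, 0.14 and -0.28. A replicate block gave 17 Igkv genes at an unadjusted p under 0.05 in place of 8, and 0 by the adjusted p. Pseudocount, filter, scaling and voom left the count of differentially expressed Igkv genes at 0, and the evenness difference kept its direction under every alternative run. Genes under 0.1% rest on few reads.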
